A study of Mus musculus with 4 samples.

Results

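Meiotic recombination and crossover genes were followed in enriched mouse pachytene spermatocytes, as a set of 37 genes among the 55364 in the deposited tables. Members were taken by symbol, covering double-strand break (DSB) formation, hotspot choice, end processing, strand exchange, single-stranded DNA binding, crossover designation and resolution, helicases and the Fanconi anaemia pathway, and the rule used no measured value. RNA was sequenced from 4 libraries, 2 of mice homozygous for a Ddx4 knock-in (KK) and 2 of wild-type mice (WT). Pachytene spermatocytes are male germ cells in the long middle stage of meiotic prophase, and were enriched from enzyme-digested testes by centrifugal elutriation. Ddx4 encodes the germ-cell DEAD-box RNA helicase also called VASA or MVH. The labels give neither strain nor age, do not say what was inserted at Ddx4 in KK mice, and leave unsaid whether replicate libraries came from different mice or from pools. The p-values therefore measure the spread between these libraries, which may be technical. Because these are bulk samples, fewer cells of a type and less RNA per cell cannot be told apart.

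Recombination in meiosis starts with programmed DSBs that SPO11 makes at sites marked by PRDM9. The ends are resected, coated by RPA and then by recombinases such as DMC1, which BRCA2 loads and which search the homologous chromosome for a repair template. During pachynema a minority of the repair intermediates, stabilised by the ZMM proteins, mature into crossovers that are resolved mainly by a nuclease containing MLH3, and the remainder are repaired without exchange. Mouse spermatocytes lacking many of these genes arrest in prophase.

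The proximal promoters of 4 members past the test, the 2 widest rises and the 2 widest falls, are shown for the letters around their start sites. They are Dmc1 and Brca2, which were higher in KK, and Fancm and Trip13, which were lower. Each runs from 250 bases before to 50 bases after the RefSeq start (GRCm38.p6), and capitals mark matches to the motifs described under the comparison of promoters. The Dmc1 window lies at chr15:79605060-79605359 on the minus strand, that of Brca2 at chr5:150522371-150522670 on the plus strand, that of Fancm at chr12:65075353-65075652 on the plus strand, and that of Trip13 at chr13:73937718-73938017 on the minus strand.
Dmc1: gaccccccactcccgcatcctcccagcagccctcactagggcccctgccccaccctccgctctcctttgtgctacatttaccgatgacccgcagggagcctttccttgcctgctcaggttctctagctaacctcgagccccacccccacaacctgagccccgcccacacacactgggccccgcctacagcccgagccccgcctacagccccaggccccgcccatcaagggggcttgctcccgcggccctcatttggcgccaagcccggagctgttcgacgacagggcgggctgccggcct
Brca2: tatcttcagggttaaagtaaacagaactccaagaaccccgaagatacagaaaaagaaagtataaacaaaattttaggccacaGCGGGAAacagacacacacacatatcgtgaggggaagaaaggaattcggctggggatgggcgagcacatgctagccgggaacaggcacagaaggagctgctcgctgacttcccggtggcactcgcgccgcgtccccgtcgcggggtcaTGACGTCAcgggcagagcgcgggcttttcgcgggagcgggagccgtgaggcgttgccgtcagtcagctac
Fancm: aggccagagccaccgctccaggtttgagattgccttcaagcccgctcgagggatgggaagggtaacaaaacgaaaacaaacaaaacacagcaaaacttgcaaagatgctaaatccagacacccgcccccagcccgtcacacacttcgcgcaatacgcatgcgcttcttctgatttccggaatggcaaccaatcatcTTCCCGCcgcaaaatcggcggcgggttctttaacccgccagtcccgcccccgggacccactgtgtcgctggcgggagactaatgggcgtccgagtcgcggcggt
Trip13: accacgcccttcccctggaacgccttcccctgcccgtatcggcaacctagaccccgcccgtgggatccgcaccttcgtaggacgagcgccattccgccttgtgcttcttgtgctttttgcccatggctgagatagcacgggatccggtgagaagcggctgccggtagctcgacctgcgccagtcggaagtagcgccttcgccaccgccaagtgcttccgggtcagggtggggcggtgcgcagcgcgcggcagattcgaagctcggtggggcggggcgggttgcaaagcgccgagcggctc
The G and C content was 69.0% in the Dmc1 window, 56.7% in Brca2, 58.0% in Fancm and 67.3% in Trip13. The Brca2 window held an E2F match 168 bases and a CRE match 20 bases before its start, and the Fancm window held an E2F match 54 bases before its start. The Dmc1 and Trip13 windows held none of the motifs searched.

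The libraries held 19438544 and 17970201 expected counts in KK, against 18156069 and 19246097 in WT. Ddx4 itself stood at 54.4 and 52.5 TPM (an abundance corrected for transcript length and sequencing depth) in the KK libraries, against 265 and 273 TPM in the WT libraries, a 5.05-fold lower level in KK (log2 fold change -2.34 ± 0.04 SE, edgeR quasi-likelihood test, Benjamini-Hochberg adjusted p = 6.8e-27). Over all genes, 16571 passed the default expression filter and 7237 were called at an adjusted p under 0.05, of which 50.4% were higher in KK. With library size as the scaling, 64.2% of the calls were higher in KK and the median log2 fold change of all genes was 0.09, against 0.00 with TMM factors. Pachytene markers were present in every library, with Ldhc, a germ-cell lactate dehydrogenase, at 9748 and 9459 TPM in KK, against 9688 and 9534 TPM in WT. Of 10 such markers, 5 fell in KK, 1 rose and 4, Ldhc among them, did not pass the test. Markers of neighbouring stages and of Leydig cells, the androgen-producing cells between the tubules, also differed between genotypes. Their values are given further below, and their part in the changes of the recombination genes was not tested.

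Changes among the recombination genes were modest and ran in both directions. Of the 37 members, 35 passed the expression filter, 4 rose in KK, 9 fell and 22 did not pass the test. The share of tested members called was 37.1%, beside 43.7% of all genes tested. Rises made up 11.4% of members, beside 22.0% of all genes, and falls 25.7%, beside 21.7%. Their depth-scaled counts (CPM) did not overlap between genotypes for 26 of the 35 members, and the same held for 70.8% of all genes tested. The median log2 fold change of the tested members was -0.17, beside 0.00 for all genes, and 27 of the 35 estimates lay below 0. Abundant genes are called more readily, so the counts were also taken at a mean of at least 10 CPM. There, 3 of 23 members rose and 8 fell (13.04% and 34.78%), beside 20.6% higher and 36.9% lower among all genes that abundant. Rec114 reached the filter through the KK libraries alone, and Mnd1 and Prdm9 through the WT libraries alone. None of these 3 was called.

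**Figure D1:**
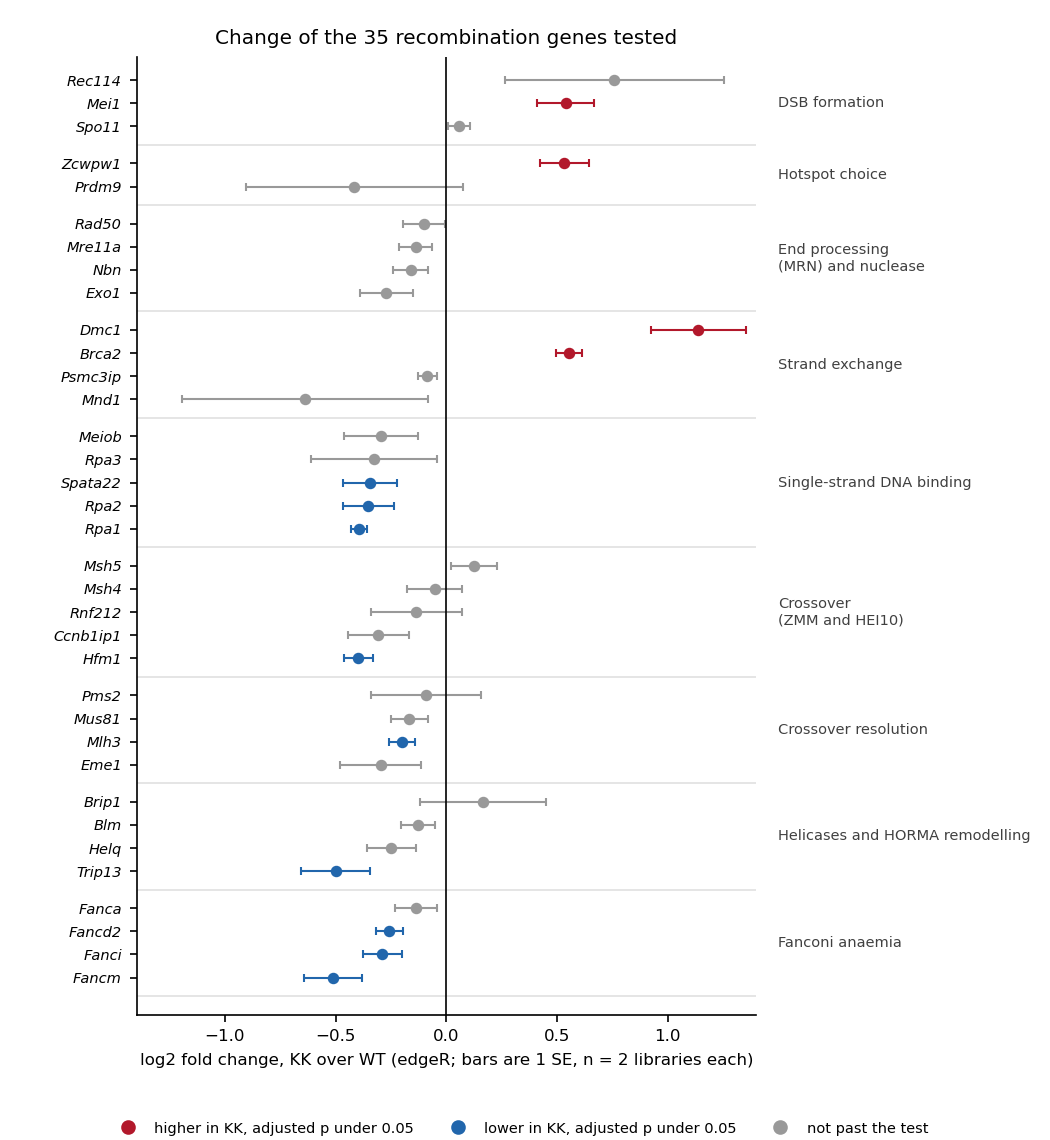
Log2 fold change, KK over WT, of the 35 recombination genes tested, grouped by role, with bars of 1 standard error (edgeR, 2 libraries per genotype). Red points are higher and blue points lower in KK at an adjusted p under 0.05, and grey points did not pass. Dmc1 lies farthest to the right at 1.14, and 27 of the 35 points lie left of 0. These include all 5 single-strand DNA binding genes and all 4 tested genes each of end processing, crossover resolution and Fanconi anaemia.

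Levels spanned several orders of magnitude in TPM. The most abundant members were Rpa1 with a mean of 283 TPM over the 4 libraries, Psmc3ip with 261 TPM and Spo11 with 108.5 TPM, followed by Mus81 with 41.7 TPM and Brca2 with 32.3 TPM. The first 3 held 62.7% and 62.9% of the summed TPM of the set in KK, against 64.6% and 64.0% in WT. The whole set summed to 969 and 954 TPM in KK, against 1098 and 1086 TPM in WT. Without those 3 genes the sum was 361 and 354 TPM in KK, against 389 and 391 TPM in WT, so the KK sums lay below the WT sums either way. At the bottom stood Brip1, Mei4 and Fancb. Dmc1, although a core recombinase, ranked low in both genotypes.

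**Figure D2:**
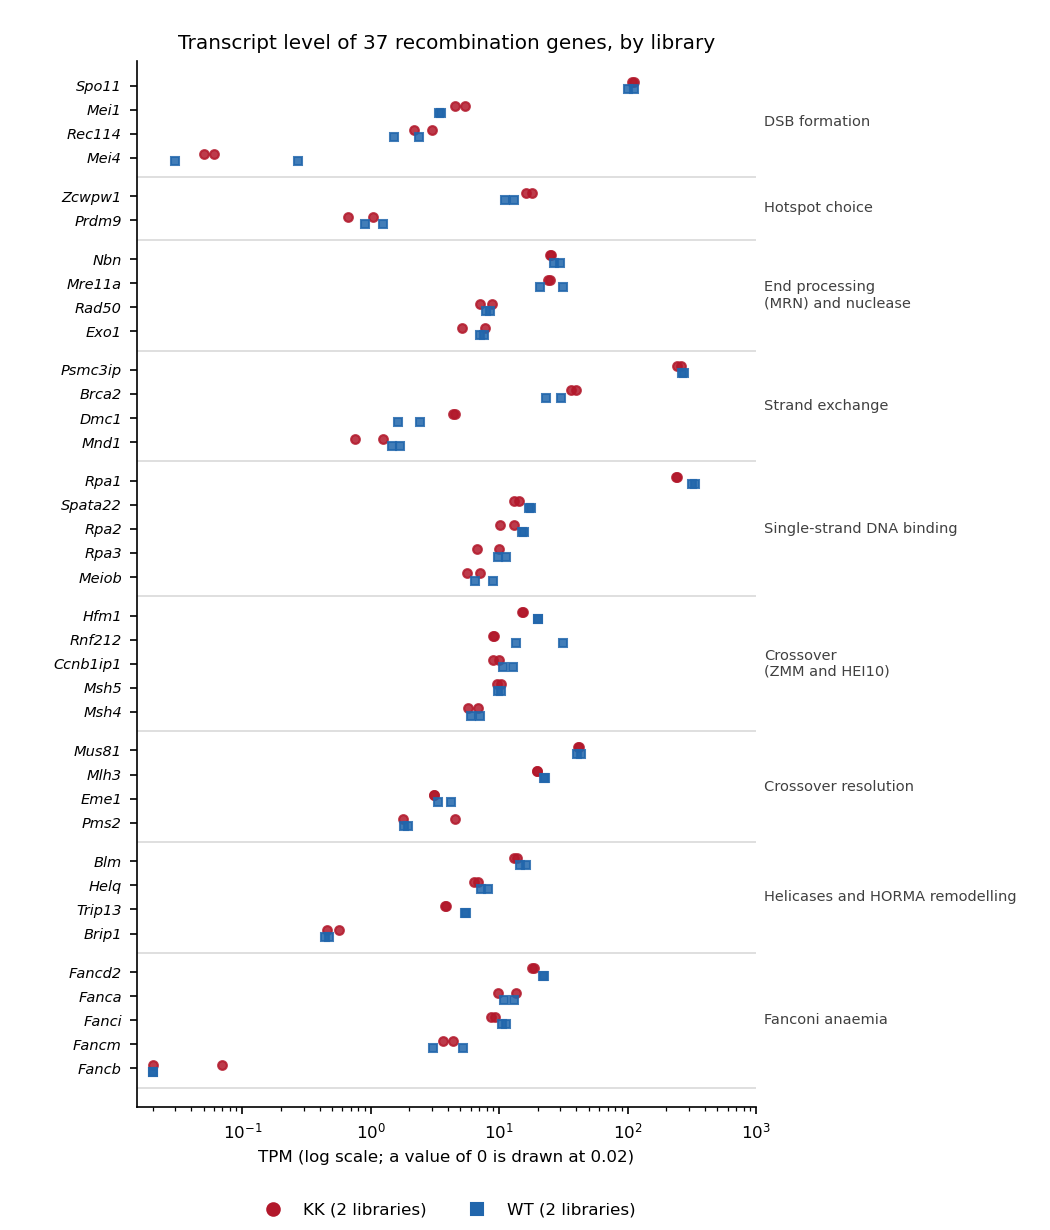
TPM of each of the 37 members in each library on a log axis, grouped by role, with KK libraries as red circles and WT libraries as blue squares. A value of 0 is drawn at 0.02. The genotypes separate most clearly for Dmc1, higher in KK, and for Rnf212, Trip13, Hfm1 and Rpa1, lower in KK. The Rnf212 gap rests on a short isoform with few reads. The broad order of levels from Rpa1 down to Fancb is shared.

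Among the genes of DSB formation, 1 of 3 tested rose. Mei1, which mouse meiosis requires for DSB formation, stood at 5.39 and 4.51 TPM in KK, against 3.43 and 3.52 TPM in WT. Both KK libraries lay above both WT libraries, a 1.45-fold rise (log2 0.54 ± 0.13 SE, 12.5 ± 0.943 CPM in KK and 8.63 ± 0.244 CPM in WT, SD, n = 2 each; edgeR adjusted p = 0.0012). Its gene lies at chr15:82069996-82126814 on the plus strand (GRCm38). The call was lost with DESeq2 (adjusted p = 0.054) and in edgeR with effective lengths, the transcript lengths open to reads, as an offset (adjusted p = 0.052), and with limma on log2(TPM + 1) (adjusted p = 0.14). Spo11, the topoisomerase-like enzyme that cuts the DNA, stood at 108 and 113 TPM in KK, against 100.3 and 113 TPM in WT. Its libraries overlapped, and the log2 fold change of 0.06 ± 0.05 SE did not pass (edgeR adjusted p = 0.35), although it did with library size as the scaling (log2 0.14, adjusted p = 0.019). Rec114, which acts with MEI4 to activate SPO11, had 23 and 15 counts in KK, against 11 and 10 in WT, and did not pass (log2 0.76 ± 0.49 SE, edgeR adjusted p = 0.22). Of its exon bases, 26.9% overlap Nptn on the opposite strand, and the library kit does not mark strand, so reads of the pair cannot be told apart. Nptn had 10.9 and 9.86 TPM in KK, against 6.20 and 6.37 TPM in WT, and its part in the Rec114 values was not tested. Mei4 had 2 and 1 counts in KK, against 1 and 6 in WT, too few to test.

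In hotspot choice, Zcwpw1 rose and Prdm9 did not pass. Zcwpw1, a reader of the paired histone marks that PRDM9 writes, stood at 17.9 and 16.3 TPM in KK, against 11.13 and 13.03 TPM in WT. The KK libraries were both above the WT libraries, by 1.45-fold (log2 0.53 ± 0.11 SE, 24.4 ± 3.18 CPM in KK and 16.9 ± 1.98 CPM in WT, SD, n = 2 each; edgeR adjusted p = 0.00022). It lies at chr5:137787798-137822621 on the plus strand. Prdm9, the histone methyltransferase that places hotspots, was near the limit of detection with 25 and 7 counts in KK, against 18 and 22 in WT. Its libraries overlapped and the log2 fold change was -0.42 ± 0.49 SE (edgeR adjusted p = 0.52).

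None of the 4 end-processing genes passed. MRE11, RAD50 and NBN form the complex that begins resection, and EXO1 is the nuclease that extends it. Mre11a stood at 25.1 and 24.0 TPM in KK, against 20.9 and 31.5 TPM in WT, with overlap. In WT replicate 2, 6.59 TPM lay on the isoform Mre11a-206, of 274 bases, with 1.00 expected count. In CPM the Mre11a libraries did not overlap, at 47.05 and 46.36 in KK, against 52.3 and 50.53 in WT. Nbn stood at 25.5 and 24.9 TPM in KK, against 29.8 and 26.7 TPM in WT. Rad50 had 8.80 and 7.14 TPM in KK, against 8.51 and 7.89 TPM in WT. Their log2 fold changes lay between -0.16 for Nbn and -0.10 for Rad50, with edgeR adjusted p of 0.14 for Mre11a, 0.41 for Rad50 and 0.10 for Nbn. Exo1 stood at 5.15 and 7.81 TPM in KK, against 7.58 and 7.14 TPM in WT (log2 -0.27, edgeR adjusted p = 0.069). Nbn passed without WT replicate 2 (adjusted p = 0.039), and Exo1 passed without KK replicate 2 (adjusted p = 0.047) or without WT replicate 2 (adjusted p = 0.016).

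Strand exchange held both the widest rise and the strongest call among the rises. Dmc1, the meiosis-specific recombinase, stood at 4.39 and 4.57 TPM in KK, against 1.63 and 2.44 TPM in WT. In counts this was 132 and 122 in KK, against 41 and 68 in WT, with the KK libraries close together and the WT libraries farther apart. The rise was 2.20-fold (log2 1.14 ± 0.21 SE, 6.61 ± 0.0465 CPM in KK and 2.98 ± 0.927 CPM in WT, SD, n = 2 each; edgeR adjusted p = 7.7e-05). The gene lies at chr15:79561497-79605109 on the minus strand, its promoter shown above. Leaving out single libraries or changing the test kept the call in all 13 alternatives, with log2 fold changes between 0.849 and 1.496.

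Brca2, which loads DMC1 onto resected ends, stood at 39.5 and 36.2 TPM in KK, against 23.1 and 30.4 TPM in WT. Both KK libraries exceeded both WT libraries, by 1.47-fold (log2 0.56 ± 0.06 SE, 92.2 ± 0.657 CPM in KK and 62.6 ± 4.90 CPM in WT, SD, n = 2 each; edgeR adjusted p = 7.4e-09). It lies at chr5:150522630-150570329 on the plus strand. Limma on log2(TPM + 1) gave a similar size without a call (log2 0.50, adjusted p = 0.060). The 2 proteins HOP2, encoded by Psmc3ip, and MND1 form a complex that helps DMC1 capture duplex DNA, and neither gene passed. Psmc3ip had 262 and 244 TPM in KK, against 274 and 264 TPM in WT (log2 -0.09 ± 0.04 SE, edgeR adjusted p = 0.11), and passed only without KK replicate 1 among the libraries left out (log2 -0.15, adjusted p = 0.011). Mnd1 had 11 and 6 counts in KK, against 13 and 12 in WT (log2 -0.64 ± 0.56 SE, edgeR adjusted p = 0.37). Mlx on the opposite strand overlaps 21.2% of Psmc3ip exon bases and reached at most 9.87 TPM. In TPM over all isoforms, Psmc3ip exceeded its partner Mnd1 209 and 325 times in KK, against 161 and 180 times in WT. Most of that Psmc3ip TPM lay on a transcript with no annotated protein, described below, so these ratios do not compare coding transcripts. On coding isoforms Psmc3ip had 7.42 and 10.8 TPM in KK, against 4.63 and 7.95 TPM in WT, whereas Mnd1 lay wholly on a coding isoform.

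The Dmc1 rise stood beside shifts in markers of earlier prophase. Of 9 leptotene and zygotene markers, all tested, 5 rose and 3 fell. Stra8, the retinoic acid-induced factor of meiotic entry, had 7.91 and 9.46 TPM in KK, against 2.51 and 3.20 TPM in WT, and Rec8, a meiotic cohesin, had 21.7 and 21.3 TPM in KK, against 11.4 and 10.3 TPM in WT. Both rose (edgeR adjusted p = 5.7e-06 for Stra8 and 2.1e-09 for Rec8), whereas Meioc, Ythdc2 and Hormad1 fell. The list summed to 2172 and 2198 TPM in KK, against 634 and 651 TPM in WT. Tex101, a germ-cell surface protein, held most of the KK sums, with 1852 and 1868 TPM in KK, against 312 and 311 TPM in WT. Without Tex101 the sums were 320 and 330 TPM in KK, against 322 and 340 TPM in WT. Of 12 spermatogonial markers, 11 were tested, 6 rose and 1 fell, with a median log2 fold change of 1.06 among those tested. Zbtb16, Lin28a and Sohlh1, counted among the rises, and Ret, not past the test, reached the expression filter through the KK libraries alone. They entered the test through the genotype in which they were high, so the count of rises and the median depend on the filter. The 12 markers summed to 72.2 and 78.4 TPM in KK, against 60.1 and 107.7 TPM in WT. Uchl1 differed widely between the WT libraries in TPM, at 17.9 and 66.2, but much less in counts. It had 341 and 319 counts in KK, against 164 and 199 in WT, and was 1 of the rises (log2 0.78 ± 0.11 SE, edgeR adjusted p = 2.1e-06). Without Uchl1 and Id4, the 2 most abundant, the sums were 15.8 and 19.4 TPM in KK, against 8.70 and 7.51 TPM in WT. No marker of either list was at 0 in every library. The part of these shifts in the rises of Dmc1, Brca2, Mei1 and Zcwpw1 was not tested.

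Of the 5 single-strand DNA binding genes tested, 3 fell and none rose. Among all genes tested 21.7% fell, as did 36.9% of those with a mean of at least 10 CPM. RPA, of subunits RPA1, RPA2 and RPA3, coats exposed single strands, and MEIOB with SPATA22 is its meiosis-specific companion. Rpa1 stood at 238 and 243 TPM in KK, against 334 and 318 TPM in WT, with no overlap. The fall was 1.31-fold (log2 -0.39 ± 0.04 SE, 323 ± 8.80 CPM in KK and 425 ± 9.11 CPM in WT, SD, n = 2 each; edgeR adjusted p = 6.7e-10). It lies at chr11:75298166-75348324 on the minus strand. Rpa2 had 10.1 and 13.1 TPM in KK, against 15.6 and 15.2 TPM in WT, 1.28-fold lower (log2 -0.35, edgeR adjusted p = 0.014). Spata22 had 13.1 and 14.2 TPM in KK, against 17.1 and 17.6 TPM in WT, 1.27-fold lower (log2 -0.35, edgeR adjusted p = 0.022).

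These 2 smaller calls were not stable. With all libraries kept, they were lost with library size as the scaling (adjusted p = 0.062 for Rpa2 and 0.082 for Spata22), with DESeq2 (0.14 and 0.19), with effective lengths as an offset (0.071 and 0.086) and with limma on log2(TPM + 1) (0.12 and 0.074). Without KK replicate 1 the adjusted p was 0.26 for Rpa2, with a log2 fold change of -0.19, and 0.10 for Spata22. Without WT replicate 1 it was 0.052 for Rpa2 and 0.055 for Spata22, and without WT replicate 2 it was 0.10 for Spata22. Of the exon bases of Spata22, 80.5% are shared with a gene model on the same strand, Gm49340, which was listed at no more than 0.46 TPM in any library. Rpa3 stood at 10.03 and 6.73 TPM in KK, against 11.4 and 9.86 TPM in WT (log2 -0.33 ± 0.29 SE, edgeR adjusted p = 0.38). Meiob stood at 7.04 and 5.57 TPM in KK, against 6.52 and 9.00 TPM in WT (log2 -0.29 ± 0.17 SE, edgeR adjusted p = 0.16), and its libraries overlapped. Meiob passed without KK replicate 1 (log2 -0.49, adjusted p = 0.045) and without WT replicate 1 (log2 -0.51, adjusted p = 0.015). The TPM ratio of Meiob to Spata22 was 0.537 and 0.391 in KK, against 0.380 and 0.512 in WT, with overlap.

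Among the crossover-designating genes, 1 of 5 fell and the other 4 did not pass. Hfm1, the helicase known as MER3 in yeast, stood at 15.1 and 15.3 TPM in KK, against 20.1 and 20.2 TPM in WT. The replicates were nearly equal within each genotype, and KK was 1.32-fold lower (log2 -0.40 ± 0.06 SE, 53.3 ± 1.06 CPM in KK and 70.2 ± 0.830 CPM in WT, SD, n = 2 each; edgeR adjusted p = 1e-05). It lies at chr5:106840192-106926321 on the minus strand. Msh4 and Msh5, whose products form the clamp that holds recombination intermediates, gave overlapping values in TPM. In CPM Msh4 overlapped, but Msh5 did not, at 16.5 and 16.8 in KK, against 14.8 and 15.7 in WT. Msh4 had 5.75 and 6.89 TPM in KK, against 6.02 and 7.06 TPM in WT, and Msh5 had 9.66 and 10.3 TPM in KK, against 10.3 and 9.77 TPM in WT (edgeR adjusted p = 0.76 for Msh4 and 0.34 for Msh5). Their TPM ratio was 0.595 and 0.670 in KK, against 0.585 and 0.723 in WT.

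Rnf212 and Ccnb1ip1 encode RING-domain factors, the second called HEI10, that select which intermediates become crossovers. Ccnb1ip1 had 9.99 and 8.91 TPM in KK, against 12.7 and 10.8 TPM in WT (log2 -0.31, edgeR adjusted p = 0.073), and passed without KK replicate 1 (adjusted p = 0.049) and without WT replicate 2 (adjusted p = 0.033). Rnf212 gave 8.90 and 9.07 TPM in KK, against 31.3 and 13.4 TPM in WT, but 91 and 85 counts in KK, against 104 and 78 in WT. The count fold change was log2 -0.14 (edgeR adjusted p = 0.63), and was 0.12 without WT replicate 1. Most of the TPM gap lay in an isoform of 288 bases, Rnf212-201, at 0 and 0 TPM in KK, against 19.96 and 4.77 TPM in WT, values that rested on 4.02 and 1.00 expected counts in WT. With effective lengths as an offset, edgeR gave log2 -1.29 for Rnf212 (adjusted p = 0.041).

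In crossover resolution, Mlh3 fell by a small amount and 3 genes did not pass. Mlh3, an endonuclease subunit that acts at crossovers, stood at 19.7 and 19.8 TPM in KK, against 22.7 and 22.4 TPM in WT. The genotypes did not overlap and KK was 1.15-fold lower (log2 -0.20 ± 0.06 SE, edgeR adjusted p = 0.0065), a call lost without KK replicate 1 (adjusted p = 0.056), with library size as the scaling (adjusted p = 0.11) and with limma (adjusted p = 0.15). Pms2, a mismatch-repair protein, had 1.77 and 4.54 TPM in KK, against 1.96 and 1.82 TPM in WT (log2 -0.09 ± 0.25 SE, edgeR adjusted p = 0.80). Its estimate was 0.07 without KK replicate 1 and 0.65 with effective lengths as an offset. Mus81 and Eme1 encode a structure-specific nuclease. Mus81 had 41.0 and 42.0 TPM in KK, against 40.3 and 43.4 TPM in WT, and Eme1 had 3.13 and 3.13 TPM in KK, against 4.19 and 3.37 TPM in WT. The edgeR adjusted p was 0.10 for Mus81 and 0.20 for Eme1. Eme1 shares 8.0% of its exon bases with Lrrc59 on the opposite strand, a gene at 205 and 212 TPM in KK, against 188 and 186 TPM in WT.

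Trip13 fell among the helicase and remodelling genes, the other 3 of which did not pass. TRIP13 is the ATPase that removes HORMA-domain proteins from chromosome axes. Its gene, at chr13:73911347-73937784 on the minus strand, stood at 3.84 and 3.80 TPM in KK, against 5.54 and 5.42 TPM in WT. The genotypes were well apart and KK was 1.41-fold lower (log2 -0.50 ± 0.16 SE, edgeR adjusted p = 0.011), although the adjusted p was 0.097 without WT replicate 2, 0.12 with DESeq2 and 0.098 with limma. Blm, the RecQ helicase that dissolves joint molecules, had 13.8 and 13.1 TPM in KK, against 14.6 and 16.1 TPM in WT (edgeR adjusted p = 0.19). Helq, a helicase of DNA repair, had 6.42 and 6.89 TPM in KK, against 8.26 and 7.28 TPM in WT (edgeR adjusted p = 0.075), and passed without WT replicate 2 (adjusted p = 0.015). Brip1, the helicase also called FANCJ, had 0.46 and 0.57 TPM in KK, against 0.47 and 0.44 TPM in WT (edgeR adjusted p = 0.67).

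Of the 4 Fanconi anaemia genes tested, 3 fell, beside 21.7% of all genes tested and 36.9% of those with a mean of at least 10 CPM. FANCD2 and FANCI form the clamp that the pathway's core complex ubiquitinates, and FANCM is the translocase that anchors that complex and limits crossovers in plants. Fancd2 had 17.9 and 18.6 TPM in KK, against 22.5 and 22.0 TPM in WT, a 1.20-fold fall (log2 -0.26 ± 0.06 SE, edgeR adjusted p = 0.0008), a call lost with limma on log2(TPM + 1) (adjusted p = 0.073). Fanci had 9.21 and 8.68 TPM in KK, against 10.6 and 11.4 TPM in WT, a 1.22-fold fall (log2 -0.29 ± 0.09 SE, edgeR adjusted p = 0.0089), with an adjusted p of 0.084 without WT replicate 2. The Fanci call was also lost with library size as the scaling (adjusted p = 0.064), DESeq2 (0.051) and limma (0.17). The ratio of the pair was 1.95 and 2.14 in KK, against 2.13 and 1.93 in WT. The part of 2 overlapping neighbours on the opposite strand in these values was not tested. Fancd2os, over 3.24% of Fancd2 exon bases, had 24.4 and 25.5 TPM in KK, against 14.5 and 10.4 TPM in WT, and Polg, over 16.0% of Fanci exon bases, had 53.7 and 57.4 TPM in KK, against 65.4 and 59.9 TPM in WT.

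Fancm gave different answers in counts and in TPM. It had 163 and 177 expected counts in KK, against 223 and 235 in WT, a 1.42-fold fall (log2 -0.51 ± 0.13 SE, 8.87 ± 1.07 CPM in KK and 12.6 ± 0.0602 CPM in WT, SD, n = 2 each; edgeR adjusted p = 0.0021). In TPM it stood at 3.66 and 4.41 in KK, against 5.23 and 3.03 in WT, which overlapped. These TPM drew on short isoforms with few reads, described below. With effective lengths as an offset the log2 fold change of Fancm was -0.02 (adjusted p = 0.96), DESeq2 gave -0.52 without a call (adjusted p = 0.054), and limma on log2(TPM + 1) gave 0.0030. The gene lies at chr12:65075603-65132058 on the plus strand. Fanca, of the core complex, had 13.6 and 9.73 TPM in KK, against 10.9 and 13.1 TPM in WT (log2 -0.14, edgeR adjusted p = 0.26). Fancb, the X-linked core subunit and the only member on that chromosome, had 3 and 0 counts in KK and 0 and 0 counts in WT, and was not tested. A count of 0 allows up to 3 counts, or 0.154 to 0.167 CPM across the libraries, for counting error only.

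Deposited isoform estimates put most members' transcripts on coding isoforms. In 19 members at least 90% of the TPM lay there in every library, and in Brca2, Prdm9 and Psmc3ip under 50% did. In expected counts, which are not divided by length, coding isoforms held 82.1% and 83.6% of Brca2 in KK, against 83.8% and 80.5% in WT, and 71.1% and 75.3% of Prdm9 in KK, against 79.4% and 79.0% in WT. For Psmc3ip they held 3.95% and 6.15% of counts in KK, against 2.36% and 4.17% in WT, so it alone of the 3 lay mainly on a transcript with no annotated protein by both measures. That retained-intron transcript, Psmc3ip-202, held 89.8% and 88.7% of the gene's transcripts in KK, against 91.5% and 91.2% in WT. Its coding isoforms summed to 7.42 and 10.8 TPM in KK, against 4.63 and 7.95 TPM in WT, with overlap. Pms2 also lay mostly off coding isoforms, which held 15.35% and 10.54% of its counts in KK, against 36.85% and 15.55% in WT. In TPM they held 25.6% and 51.5% of Pms2 in KK, against 33.2% and 8.29% in WT, above 50% only in KK replicate 2. There the coding Pms2-211, of 521 bases, had 2.34 TPM on 6.81 expected counts. The values are estimates that split reads among isoforms, and no test was made on them.

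For Brca2 the 3 isoforms with the highest TPM were higher in KK. The coding Brca2-210 stood at 8.65 and 9.57 TPM in KK, against 4.55 and 5.80 TPM in WT. The retained-intron Brca2-205 stood at 15.5 and 15.1 TPM in KK, against 9.02 and 11.2 TPM in WT, and the processed transcript Brca2-206 at 11.2 and 9.70 TPM in KK, against 6.76 and 8.67 TPM in WT. Both KK libraries lay above both WT libraries for these 3. A second long coding isoform, Brca2-201, ran the other way, with 134 and 0 expected counts in KK, against 231 and 128 in WT. Beside it, Brca2-210 had 1394 and 1408 expected counts in KK, against 642 and 866 in WT. The lower Rpa1 level was likewise shared by the coding Rpa1-201, at 134 and 142 TPM in KK, against 182 and 177 TPM in WT, and the retained-intron Rpa1-205, at 97.5 and 96.9 TPM in KK, against 145 and 134 TPM in WT. Hfm1 was uneven. Its coding isoform Hfm1-202 had 18.4 and 26.3 CPM in KK, against 39.6 and 37.8 CPM in WT, a KK to WT ratio of 0.577 of the means, while Hfm1-201 had 33.1 and 27.2 CPM in KK, against 30.4 and 30.3 CPM in WT, a ratio of 0.994.

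Fancm isoforms scattered between replicates. The coding Fancm-201 had 154 and 168 expected counts in KK, against 137 and 230 in WT, and Fancm-207, annotated for nonsense-mediated decay, had 0 and 0 in KK, against 74.4 and 0 in WT. The retained-intron Fancm-205, of 563 bases, had 2.02 and 0.76 TPM in KK, against 3.15 and 0.83 TPM in WT. It had 7.85 and 2.66 expected counts in KK, against 10.55 and 2.98 in WT. The coding Fancm-203, of 502 bases, had 0.33 and 2.08 TPM in KK, on 0.97 and 5.49 expected counts, and 0 and 0 TPM in WT. Among smaller cases, the retained-intron Mus81-205 had 9.48 and 9.08 TPM in KK, against 4.64 and 4.99 TPM in WT, with both KK libraries higher. These values rested on few reads of a transcript of 393 bases, with 12.2 and 10.2 expected counts in KK, against 5.0 and 5.91 in WT.

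**Figure D3:**
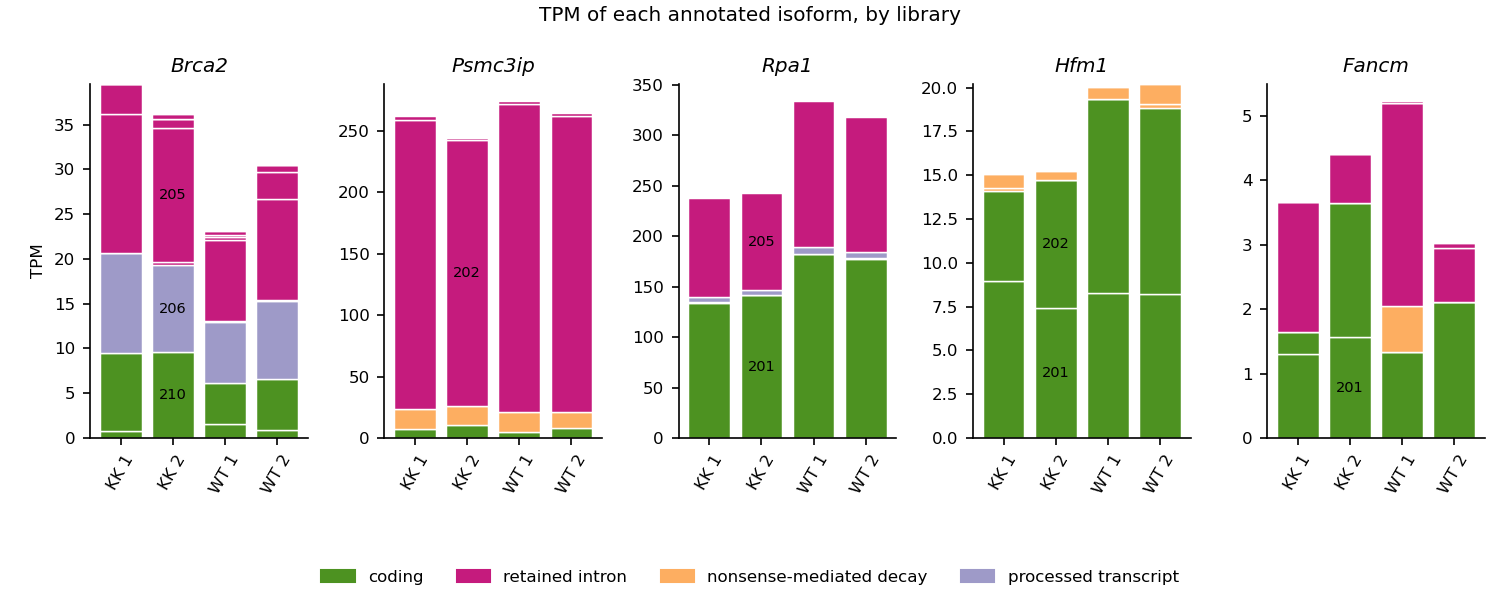
Stacked TPM of the annotated isoforms of Brca2, Psmc3ip, Rpa1, Hfm1 and Fancm in each library (KK 1, KK 2, WT 1, WT 2, left to right), coloured by transcript class, with numbers naming the largest isoforms and a separate TPM axis per gene. Psmc3ip is almost wholly a retained-intron transcript, the Brca2 bars are taller in KK for every class, and the Fancm bars change make-up from library to library.

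The letters of the promoters were compared as a description, since a match is not a binding site. Of the 37 members, 31 had a window in the RefSeq table. The E2F motif GCGGGAA, on either strand, was in 11 of the 31 members with a window (35.5%). It was also in 17 of 57 other recombination and repair genes, described below (29.8%), beside 8.89% of the 11944 tested genes with a window. Counted by promoter, it was in 32.35% of the members' 34 windows, beside 4.60% of all promoters. Among the 11 were Brca2 (risen), Fanci, Fancm, Rpa2 and Spata22 (fallen) and 6 members that were not called, so it occurred in genes of either direction. The MYB motif, read as TAACGG or TAACTG or CAACGG or CAACTG on either strand, was in 6 of 31 (19.4%), beside 30.7% of tested genes. The STRA8 and MEIOSIN motif CNCCTCAG was in 4 of 31 (12.9%), those of Hfm1, Msh5, Pms2 and Prdm9, beside 11.03% of tested genes. The CRE motif TGACGTCA was in the Brca2 window alone among the members, beside 3.45% of tested genes.

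The wider pathway, in a list of 76 other recombination and repair genes, held more falls than rises. All were tested, and 34 fell, 8 rose and 34 did not pass. Falls made up 44.7%, beside 21.7% of all genes tested, and rises 10.5%, beside 22.0%. At a mean of at least 10 CPM, 28 of 49 fell (57.1%) and 4 rose (8.16%), beside 36.9% and 20.6% of all genes that abundant. The median log2 fold change was -0.17, the same to 2 decimals as that of the members. The falls numbered 9 of 15 in joint molecule resolution, 7 of 14 among other Fanconi genes, 9 of 24 in strand exchange and BRCA2 partners, 5 of 12 crossover factors, 3 of 8 in DSB formation and hotspots, and 1 of 3 in end processing. With library size as the scaling, 19 of the 76 were lower, and with DESeq2 22 were.

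Among the 24 strand-exchange genes and BRCA2 partners, 4 rose (16.7%), below the 22.0% of all genes tested, and 9 fell. Tex15, required in mice for loading the recombinases, stood at 9.48 and 10.9 TPM in KK, against 4.24 and 4.86 TPM in WT, a 2.11-fold rise (log2 1.08 ± 0.10 SE, edgeR adjusted p = 1.1e-09). Xrcc2, which assists strand exchange, stood at 23.3 and 25.7 TPM in KK, against 16.42 and 15.01 TPM in WT (log2 0.63 ± 0.09 SE, edgeR adjusted p = 1.2e-06). Mcm8, a helicase of recombinational repair, stood at 2.67 and 2.98 TPM in KK, against 1.24 and 1.72 TPM in WT (log2 0.88 ± 0.21 SE, edgeR adjusted p = 0.0011). The KK libraries were above the WT libraries for all 3, although limma on log2(TPM + 1) did not call Mcm8 (adjusted p = 0.056). Rad51c, which also assists strand exchange, moved the other way, with 23.0 and 19.7 TPM in KK, against 31.0 and 30.7 TPM in WT (log2 -0.50 ± 0.09 SE, edgeR adjusted p = 4.1e-05).

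The remaining named rises were smaller in counts. Gm960, the symbol in this annotation for the SPO11 partner Top6bl, had 2.06 and 3.08 TPM in KK, against 0.93 and 1.34 TPM in WT (log2 0.84 ± 0.30 SE, edgeR adjusted p = 0.025), with an adjusted p of 0.083 without KK replicate 1 and 0.20 without WT replicate 1; DESeq2 gave 0.18 and limma 0.062. Recql4, a RecQ helicase, had 2.22 and 2.19 TPM in KK, against 1.22 and 1.32 TPM in WT (log2 0.80 ± 0.20 SE, edgeR adjusted p = 0.0015), and 9.72% of its exon bases overlap Mfsd3 on the opposite strand. Tex11, an X-linked ZMM factor, had 2.63 and 2.67 TPM in KK, against 1.75 and 1.60 TPM in WT (log2 0.66 ± 0.19 SE, edgeR adjusted p = 0.0064). Calls were lost with limma on log2(TPM + 1) for Recql4 (adjusted p = 0.063) and Tex11 (0.089), and with DESeq2 for Tex11 (0.11). The Tex11 rise stands beside a background in which 57.6% of the 568 X-linked genes tested were higher in KK.

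Among the named falls, Cdk2, the kinase found at crossover sites and telomeres, was the most abundant, at 84.7 and 81.0 TPM in KK, against 122 and 123 TPM in WT (log2 -0.51 ± 0.04 SE, edgeR adjusted p = 4.3e-11). Gen1, a Holliday junction resolvase, had 1.09 and 1.59 TPM in KK, against 2.24 and 1.86 TPM in WT (log2 -0.78 ± 0.22 SE, edgeR adjusted p = 0.0048). Dna2, a nuclease and helicase of resection, had 2.42 and 2.50 TPM in KK, against 3.40 and 3.86 TPM in WT (log2 -0.71 ± 0.15 SE, edgeR adjusted p = 0.00027). Each of these 3 was lower in both KK libraries. AI481877, the symbol here for the ZMM factor Shoc1, had 2.93 and 2.66 TPM in KK, against 4.05 and 3.52 TPM in WT (log2 -0.53 ± 0.14 SE, edgeR adjusted p = 0.0020). Faap20, of the Fanconi core complex, had 5.54 and 6.22 TPM in KK, against 8.19 and 9.22 TPM in WT (edgeR adjusted p = 0.010), with an adjusted p of 0.078 without KK replicate 1. DESeq2 called neither Gen1 (adjusted p = 0.074), AI481877 (0.050) nor Faap20 (0.12), and effective lengths as an offset gave 0.11, 0.071 and 0.076 for them. Limma on log2(TPM + 1) called none of these 3 (adjusted p = 0.18, 0.20 and 0.067), nor Dna2 (0.12).

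**Figure D4:**
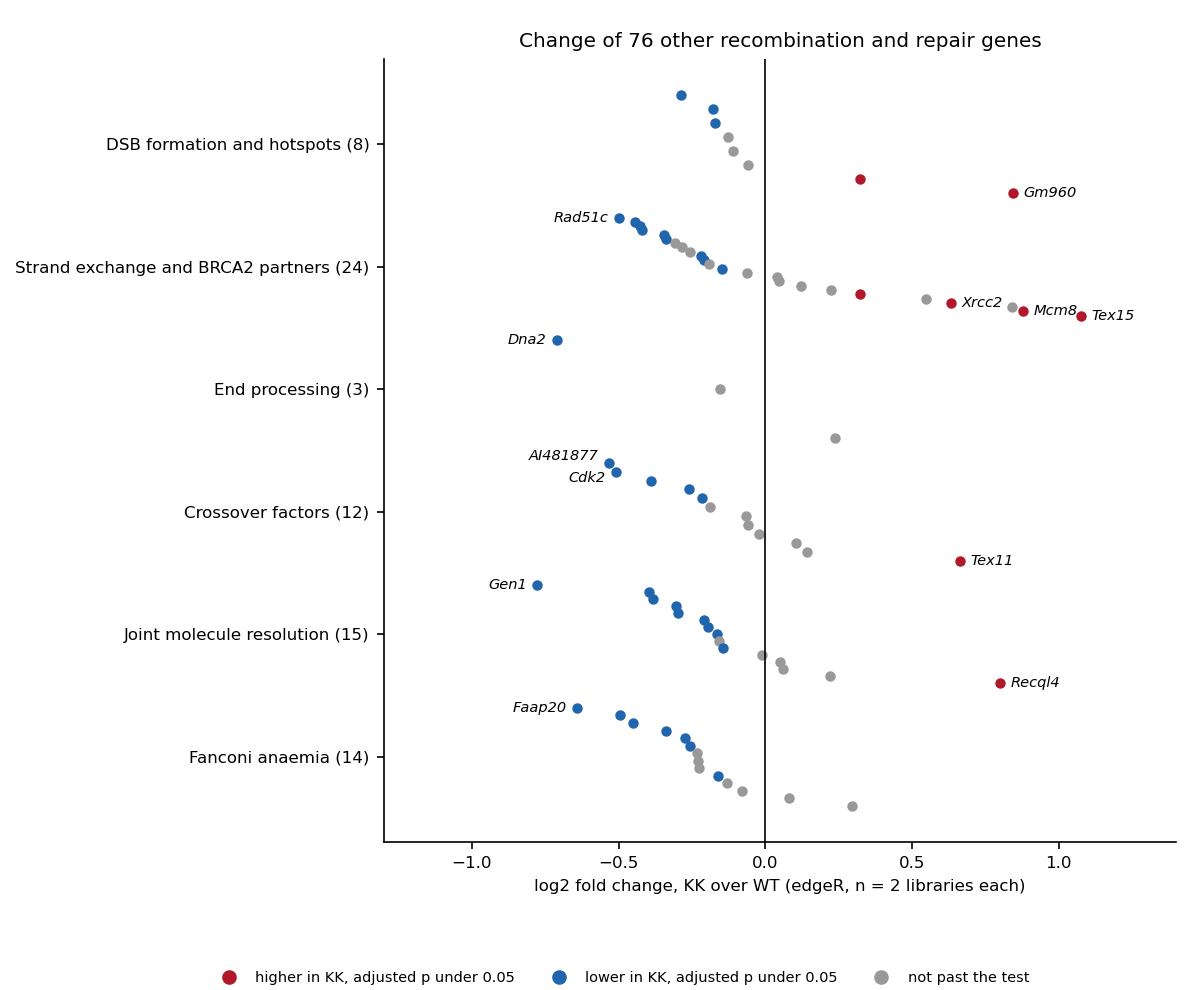
Log2 fold change, KK over WT, of 76 other recombination and repair genes in 6 roles, with the number of genes in brackets, 1 point per gene, and names for those given values. Red points are higher and blue points lower in KK at an adjusted p under 0.05. Blue points outnumber red points in all 6 roles and red points reach farther from 0, up to 1.08 for Tex15.

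The falls stood beside shifts in other markers of the fraction. Of 10 pachytene markers, 5 fell and 1 rose. Falls made up 21.7% of all genes tested and 36.9% of those with a mean of at least 10 CPM. Piwil1, the pachytene piRNA-binding protein, had 216 and 227 TPM in KK, against 328 and 330 TPM in WT (edgeR adjusted p = 1.4e-13), and Sycp3, of the chromosome axis, had 231 and 223 TPM in KK, against 294 and 296 TPM in WT (edgeR adjusted p = 9.3e-09). The widest change among the 10 was the rise of Spag6, with 70.11 and 71.01 TPM in KK, against 40.46 and 40.01 TPM in WT. Its log2 fold change was 0.81 (edgeR adjusted p = 1.4e-10). Ccna1, Hist1h1t, Ldhc and Pgk2 did not pass, with log2 fold changes from -0.07 for Hist1h1t to 0.02 for Pgk2. The pachytene list summed to 11903 and 11601 TPM in KK, against 12077 and 11946 TPM in WT. Of 10 spermatid markers, 5 rose and 4 fell, and they summed to 17488 and 16901 TPM in KK, against 19481 and 19321 TPM in WT. Of 8 Leydig cell markers, 7 rose and none fell, with sums of 2422 and 2504 TPM in KK, against 671 and 707 TPM in WT, mostly from Insl3. Lhcgr, counted among these rises, reached the expression filter through the KK libraries alone. The Sertoli list, with 1 rise and 3 falls among 7 tested, summed to 93.1 and 97.1 TPM in KK, against 102 and 104 TPM in WT. The list of peritubular, endothelial and macrophage markers, with 2 rises and no fall among 5 tested, reached 2.84 and 4.14 TPM in KK, against 1.61 and 2.49 TPM in WT. Csf1r, counted among these rises, likewise entered the test through the KK libraries alone. No marker in these lists was at 0 in every library, and the part of these shifts in the recombination genes' changes was not tested.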

How the data were processed

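RNA was sequenced from pachytene spermatocyte fractions of 2 KK and 2 WT samples. The library kit named in the labels' protocols keeps no strand information. The submitters' processing notes name Bowtie, mm10 and GRCm38. A quantifier and an annotation release are not named in the sources used here. The deposited tables hold, per the file headers, expected counts (estimates that need not be whole), TPM and effective lengths for genes and isoforms. The isoform percent values, the share of a gene's transcripts, were used as deposited. The deposited TPM divide counts by effective length, so a short isoform with few reads can move a gene's TPM.

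Expected counts were rounded and tested with edgeR 4.0.16 in R 4.3.3 (TMM factors, default expression filter at a count of 10, quasi-likelihood fit on genotype, Benjamini-Hochberg over 16571 genes, threshold 0.05), and CPM are on the TMM scale. SE is the log2 fold change over the square root of F. Gene symbols came from GENCODE M21 (GRCm38), which held 55104 of 55364 identifiers. The members and lists were chosen with earlier results of these data known. All 37 members are accounted for. Of the other genes, up to 6 rises and 6 falls with the largest log2 fold change past the test at a mean of at least 1 CPM are named, with Ddx4 by rule. Some other genes of the pathway are not reported here by name. The marker sums without Tex101 or without Uchl1 and Id4, the marker genes named, and the counts at a mean of 10 CPM were chosen after values were seen. Alternatives used DESeq2 1.42.0, limma 3.58.1 on log2(TPM + 1) and log2(TPM + 0.1), other scalings and filters, effective lengths as an offset, a replicate block and leaving out each library. The fit was tested on simulated counts. Replicates differed by more than sampling noise, with a chi-square per degree of freedom of 2.81 in KK and 2.73 in WT.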

Additional observations from a re-analysis of the deposited data

How the results depend on the processing

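With 2 libraries per genotype, p-values rest on a spread shared across genes, sparsely counted members had wide standard errors (0.29 for Rpa3 to 0.56 for Mnd1), and isoform estimates have no test. Dmc1, Zcwpw1, Rpa1 and Hfm1 kept their direction and call in all 13 alternatives, and the median log2 fold change of members stayed between -0.21 and -0.08. Genes higher in KK numbered 3648, against 2035 with DESeq2, 2275 and 2209 with limma at pseudocounts of 1 and 0.1, and 2379 with effective lengths as an offset; genes lower numbered 3589, against 1551 and 1549 with limma and 2283 with that offset. Members higher numbered 4, against 2 and 2 with limma; members lower numbered 9, against 5 with library size only, 4 with DESeq2, and 2 and 2 with limma. Other recombination genes higher numbered 8, against 4 with DESeq2 and 2 and 2 with limma; those lower numbered 34, against 19 with library size only, 22 with DESeq2, 16 and 16 with limma and 22 with the offset. Leaving out 1 library at a time gave 2916 to 3095 genes higher and 3009 to 3457 lower, 4 members higher and 8 to 10 lower, 6 to 7 other genes higher and 27 to 32 lower, and a member median of -0.21 to -0.15. The log2 fold change changed sign for Msh4 (0.031 with library size only), Msh5 (-0.0080 and -0.0088 with limma, -0.0247 with the offset), Pms2 (0.44 and 0.57 with limma, 0.65 with the offset) and Fancm (0.0030 and 0.0118 with limma). It also crossed 0 when 1 library was left out, ranging from -0.0073 (without WT replicate 1) to 0.11 for Spo11, from -1.53 to 0.17 (without KK replicate 2) for Prdm9, from -0.20 to 0.10 for Msh4 (0.02 without KK replicate 1 and 0.10 without WT replicate 2), from -0.37 to 0.12 (without WT replicate 1) for Rnf212 and from -0.29 to 0.0731 (without KK replicate 1) for Pms2. Of these genes, Fancm alone was called. The cause of each was not tested. DESeq2 gave no adjusted p for 1 named gene.

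The libraries share only replicate numbers, and nothing in the labels pairs them. The deviations of same-numbered libraries from their genotype means correlated at -0.0819 over 16571 genes. With a replicate block the count of calls was 7309, against 7237 without it, with 4 members higher and 12 lower, the added calls being Ccnb1ip1, Exo1 and Helq, 8 other genes higher and 34 lower, and a member median of -0.17.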
